A study of Mus musculus with 9 samples.

Results

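The genes described here are 10 members of the interleukin-1 family and its partners, taken by symbol from a table of 19481 genes: the ligands *Il1a*, *Il1b*, *Il18* and *Il33*, the antagonist *Il1rn*, the receptor genes *Il1r1*, *Il1rap* and *Il1rl1*, and *Il6* with its receptor gene *Il6ra*. All 10 symbols were found in the table, and all 10 passed the filter on low counts. RNA was sequenced from 9 subcutaneous tumors of KLN205, a mouse lung squamous carcinoma line, that had grown in immunocompetent female DBA/2 mice. The cells carried a doxycycline-inducible shRNA (the SMART system): 3 tumors a scrambled control, 3 tumors the *Tmprss11b* hairpin labelled sh2 and 3 tumors the *Tmprss11b* hairpin labelled sh3, which the study calls shRNA1 and shRNA2. All 3 groups, control included, drank doxycycline water from the time the mean tumor volume reached 100 mm3 until the tumors were removed at day 50. The hairpins were carried by the carcinoma cells and not by the host, whereas the RNA came from pieces of whole tumor, so the level of a cytokine gene sums over carcinoma and host cells, and fewer cells of a type cannot be told apart from less RNA per cell. Tumor volumes are not among the values used here, so tumor size and group cannot be told apart either.

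Ligands of the interleukin-1 family are alarm signals that are released by stressed, dying or activated cells and act through paired receptors and the adaptor MyD88 to switch on NF-kappaB. Interleukin-1 alpha and beta share the receptor encoded by *Il1r1* and its accessory chain *Il1rap*, and the antagonist encoded by *Il1rn* occupies the same receptor without signalling. *Il33* acts through *Il1rl1* (the ST2 receptor, which also needs *Il1rap*), interleukin-18 through a receptor pair of its own, and interleukin-6, a typical product of interleukin-1 signalling, through *Il6ra* and the shared chain *Il6st*. In carcinomas such cytokines are made by carcinoma cells, macrophages, neutrophils and fibroblasts, and are known for recruiting myeloid cells.

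Several members lie side by side in the mouse genome (RefSeq annotation, GRCm38.p6). *Il1a* (chr2:129299609-129310186) and *Il1b* (chr2:129364569-129371164) are neighbours on chromosome 2, on which *Il1rn* lies far away (chr2:24336860-24351491). *Il1r1* (chr1:40222480-40316201) and *Il1rl1* (chr1:40404864-40465418) belong to a receptor cluster on chromosome 1 that also holds *Il1r2*, *Il1rl2*, *Il18r1* and *Il18rap*. *Il18r1* (chr1:40465552-40500854) begins directly behind the end of *Il1rl1*, and the annotated spans of this pair do not overlap. Whether reads that run past the end of *Il1rl1* were counted for *Il18r1* was not tested. *Il1rap* lies at chr16:26581509-26730128, *Il33* at chr19:29925113-29960718, *Il18* at chr9:50554700-50581841, *Il6* at chr5:30013114-30019975 and *Il6ra* at chr3:89869324-89913196, all protein-coding genes.

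Total counts were 20653219 to 24047784 reads per tumor, so that 3 reads correspond to 0.125 to 0.145 CPM (reads relative to library size, scaled below by TMM factors, which even out differences in library composition), and the 9 tumors had been sequenced to nearly the same depth. The targeted gene, listed as *Tmprss11bnl*, was read 18, 51 and 42 times in the control tumors, 7, 2 and 5 times in the sh2 tumors and 10, 4 and 5 times in the sh3 tumors, so every sh2 and sh3 tumor was below every control tumor. Its log2 fold change was -2.89 (SE 0.60, FDR = 0.999, edgeR) with sh2 and -2.36 (SE 0.58, FDR = 0.753, edgeR) with sh3, so the targeted gene did not pass after adjustment over all genes either. Of 13 squamous and keratinocyte markers, 9 to 13 were over 3 counts in each tumor. *Krt5*, a defining basal keratin, was at 87.3 CPM in control tumor 1 and between 0.0855 and 5.02 CPM in the other 8. In the same list *Krt14* was at 71.64 to 389.3 CPM in control, 59.88 to 107.5 CPM with sh2 and 12.29 to 183.6 CPM with sh3. *Krt6a* was at 115.7 to 291.8, 104.2 to 144.7 and 46.4 to 185.9 CPM in the same order of groups. The simple-epithelium keratin *Krt8* was at 696 to 1787 CPM in all 9. One tumor, sh3 replicate 1, was lowest in several lists. It had the lowest summed level of macrophage and monocyte markers (2101 CPM against 2512 to 6429 CPM in the other tumors), of neutrophil markers (57.0 CPM) and of squamous markers (66.9 CPM). Other tumors were extreme as well. The highest sums were in sh3 replicate 2 for macrophages and monocytes (6429 CPM), control tumor 1 for squamous markers (862.8 CPM) and control tumor 3 for skeletal muscle (3185 CPM). Fold changes of members that rest on sh3 replicate 1 are given below with and without it.

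The members covered a range of more than 100-fold in their level per gene length (deposited TPM, a unit scaled by gene length and depth). In the control tumors *Il1b* was the highest at 149 ± 37.7 TPM (SD, n = 3), followed by *Il18* at 47.9 ± 4.86, *Il1rn* at 45.2 ± 1.81, *Il1r1* at 33.9 ± 2.4 and *Il6ra* at 19.7 ± 1.73 TPM. Below these were *Il33* at 12.7 ± 3.64, *Il1rap* at 8.27 ± 1.07 and *Il1a* at 5.24 ± 0.852 TPM, and the lowest were *Il1rl1* at 1.32 ± 0.454 and *Il6* at 1.18 ± 0.309 TPM. Neighbours in this order did not overlap among the control tumors, except *Il18* with *Il1rn* and *Il1rl1* with *Il6*, which did. Over all 9 tumors *Il1b* was above *Il18*, *Il1rn* above *Il1r1*, *Il1r1* above *Il6ra* and *Il1a* above *Il1rl1* in 9 of 9. *Il6ra* was above *Il33* and *Il33* above *Il1rap* in 7 of 9, *Il1rap* above *Il1a* in 5, *Il18* above *Il1rn* in 4 and *Il1rl1* above *Il6* in 3 of 9, so these places in the order did not hold in every tumor. So transcripts of *Il1b*, its antagonist and its receptor were plentiful in these tumors, and *Il6* mRNA was close to the limit of detection, with 6 to 16 reads per tumor.

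**Figure D1:**
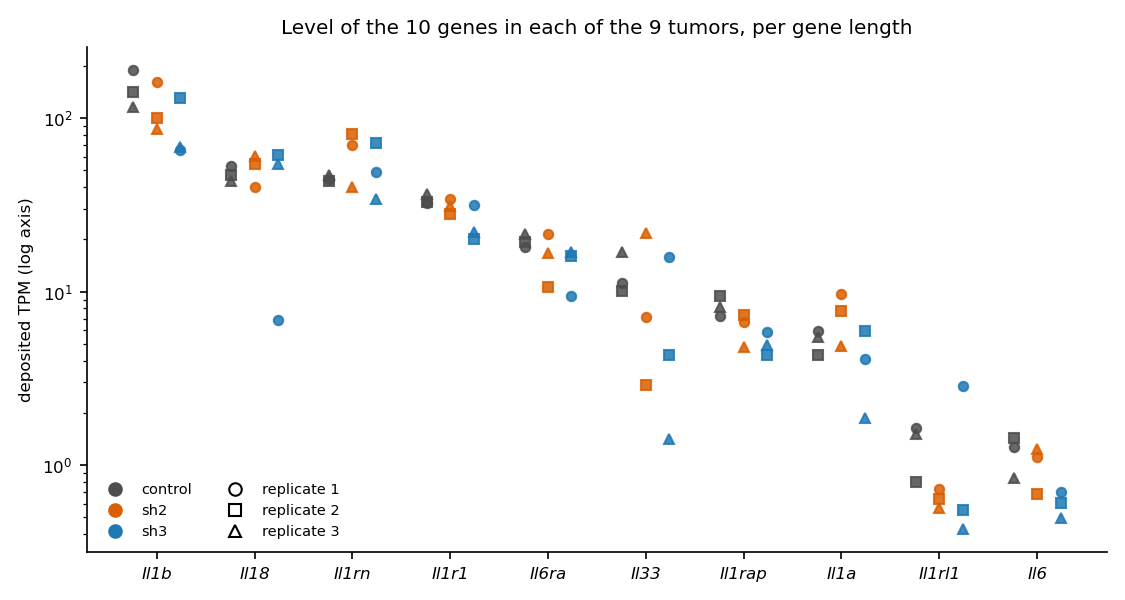
Deposited TPM (log axis) of the 10 genes in each of the 9 tumors, with groups by colour and replicates by symbol; genes are ordered by their mean in the control tumors. *Il1b* was between 65.6 and 190 TPM in every tumor and *Il6* between 0.496 and 1.43 TPM, and *Il18* dropped to 6.90 TPM in a single tumor, sh3 replicate 1.

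Whether depletion of *Tmprss11b* moved these genes was asked with the counts of all 14725 genes that passed the filter. None of the 10 members passed a false discovery rate (FDR) of 0.05, taken over all genes tested (edgeR quasi-likelihood test), in sh2 against control, sh3 against control, the mean of both *Tmprss11b* hairpins against control, or sh3 against sh2. Over all genes tested 0% passed in each of these 4 comparisons, so the members were no exception. At an unadjusted P under 0.05 there were 0 members in sh2 against control (3.52% of all genes tested), 1 in sh3 against control (6.63% of all), 1 in the mean of both against control (4.09% of all) and 0 in sh3 against sh2 (7.18% of all). The single member was *Il1rap* in both cases. DESeq2's Wald test and the edgeR likelihood ratio test likewise called none of the 10, although over all genes DESeq2 called 2, 41, 9 and 48 in the 4 comparisons and the likelihood ratio test 0, 8, 8 and 14.

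Most members had lower fitted levels with the *Tmprss11b* hairpins, without passing the test. Of the 10, 7 had a negative log2 fold change with sh2 (median of the 10, -0.19, against 0.01 over all genes tested), 7 with sh3 (-0.27 against 0.03) and 7 in the mean of both (-0.34 against 0.02). The exceptions in the mean were *Il1rn*, *Il1a* and *Il18*. Over all 14725 genes tested, 7100, 6642 and 6633 were lower in the same order of comparisons. In sh3 against sh2, 9 of the 10 members were lower (median -0.19 against 0.03), as were 6648 of all genes tested. All tumors of a group lay beyond all control tumors for 1 member with sh2 (*Il1rl1*, lower; 11.4% of all genes tested did not overlap in either direction) and for 3 with sh3 (*Il1r1*, *Il1rap* and *Il6*, lower; 12.2% of all). For 0 members were the 6 sh2 and sh3 tumors all beyond the control tumors (2.17% of all), and for 0 members did sh2 and sh3 not overlap (10.2% of all). Comparisons with control share its 3 tumors and are not independent of each other.

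**Figure D2:**
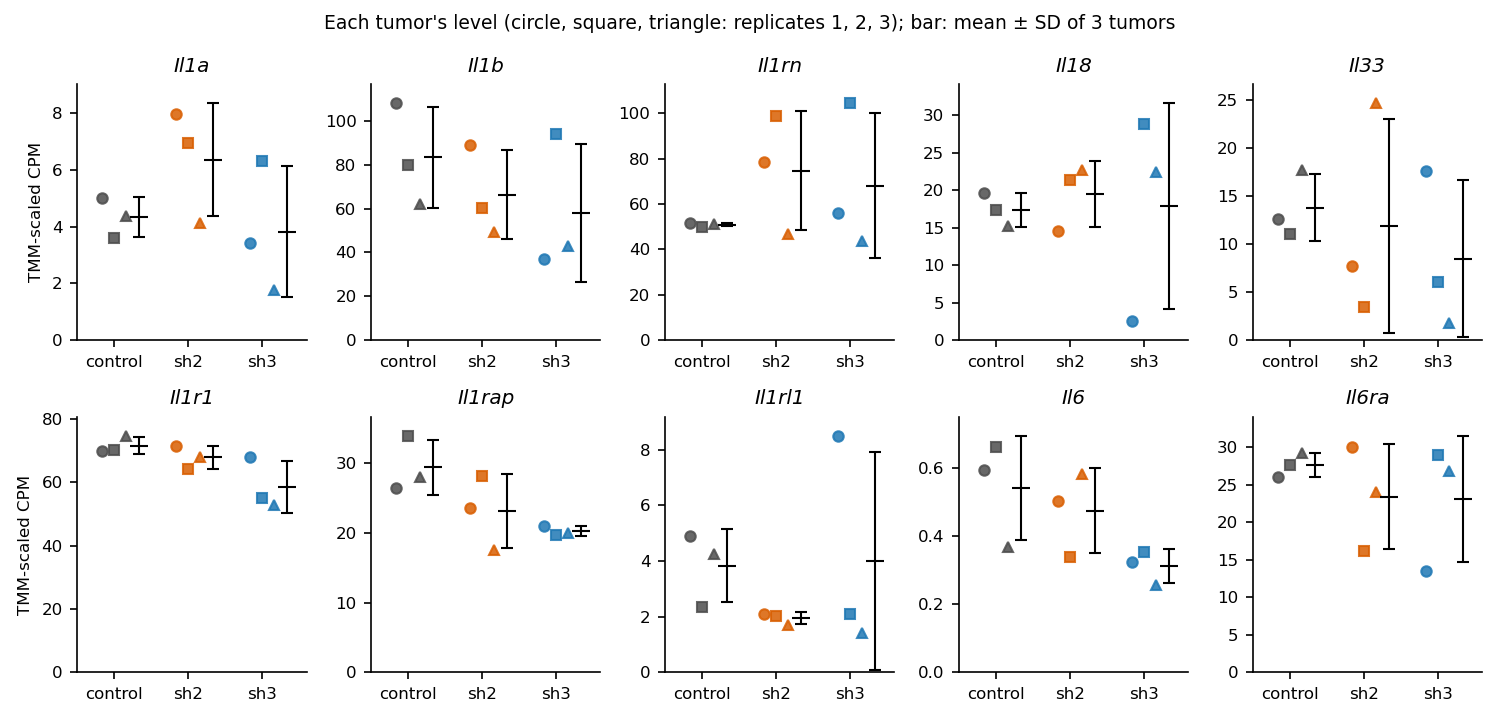
TMM-scaled CPM of each member in each tumor (circles, squares and triangles are replicates 1, 2 and 3; the bar is the mean ± SD of 3 tumors, and every axis starts at 0). Control tumors lay close together for *Il1rn* (50.0 to 51.5 CPM) and *Il6ra* (26.0 to 29.2 CPM), and the sh2 and sh3 tumors spread around them.

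*Il1b* encodes the secreted, caspase-1-processed form of interleukin-1 and was the most abundant member. Its level was 108, 79.9 and 62.0 CPM in control, 89.1, 60.4 and 49.5 CPM with sh2 and 37.1, 94.1 and 43.0 CPM with sh3. The groups overlapped, and the second sh3 tumor was above 2 of the 3 controls. Against control, the log2 fold change was -0.33 (SE 0.38, FDR = 0.999, edgeR) with sh2 and -0.52 (SE 0.38, FDR = 0.829, edgeR) with sh3. These values moved widely with single tumors. With sh3 the value was -0.28 (FDR = 0.770, edgeR) without sh3 replicate 1, in which *Il1b* was lowest, and -0.31 without control replicate 1, in which it was highest. Without sh3 replicate 2, the tumor with the highest summed macrophage and monocyte markers (6429 CPM), it was -1.06 (FDR = 0.603, edgeR), and the part of these cells in the result was not tested. With sh2 the value was -0.09 without control replicate 1, -0.15 without sh2 replicate 3 and -0.60 without sh2 replicate 1.

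*Il1a* encodes interleukin-1 alpha, which is active without processing and is also held in cells until they die. It was at 5.02, 3.6 and 4.38 CPM in control, at 7.96, 6.95 and 4.13 CPM with sh2 and at 3.42, 6.30 and 1.75 CPM with sh3. The first 2 sh2 tumors and the second sh3 tumor were above all controls, and the other tumors were within or below them. The log2 fold change was 0.55 (SE 0.45, FDR = 0.999, edgeR) with sh2 and -0.18 (SE 0.45, FDR = 0.958, edgeR) with sh3, and the difference between both hairpins did not pass either (sh3 against sh2 -0.73, SE 0.45, FDR = 0.707, edgeR).

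*Il1rn*, the natural antagonist, gave the narrowest control group of all members, at 51.5, 50.0 and 51.4 CPM. With sh2 it was at 78.8, 98.9 and 46.6 CPM, and with sh3 at 56.2, 104 and 43.8 CPM. With each hairpin, replicates 1 and 2 were above all controls and replicate 3 was below them. The log2 fold change was 0.55 (SE 0.34, FDR = 0.999, edgeR) with sh2, 0.42 (SE 0.34, FDR = 0.834, edgeR) with sh3 and 0.49 (SE 0.30, FDR = 0.982, edgeR) in the mean of both. The value for sh3 rested on replicate 2, and without it was -0.03. The value for sh2 was 0.31 without sh2 replicate 2 and 0.81 (FDR = 0.996, edgeR) without sh2 replicate 3, and in the latter case *Il1rn* had an unadjusted P under 0.05 with sh2 and in the mean (0.60).

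The balance of *Il1b* and its antagonist *Il1rn* was looked at within each tumor after the values of both genes had been seen, so it is given as a description with no test. There were 2.10, 1.60 and 1.21 *Il1b* reads per *Il1rn* read in the control tumors, 1.13, 0.610 and 1.06 with sh2 and 0.659, 0.901 and 0.982 with sh3. The control tumors were all above the 6 sh2 and sh3 tumors, but the 95% counting intervals (exact binomial, covering counting error only) of the lowest control tumor, 1.12 to 1.30, and of the highest sh2 or sh3 tumor, 1.06 to 1.2, overlapped. The ratio does not depend on library scaling. Fitted log2 fold changes of *Il1b* minus those of *Il1rn* were -0.88 with sh2 and -0.94 with sh3, from genes that did not pass the threshold singly. Both values use the same 3 control tumors. Of 4 such ratios formed, it was the only one in which the 6 sh2 and sh3 tumors were all on one side of the controls. Of single genes, 2.17% of all tested were separated in this way. How often the ratio of other pairs of genes is so separated was not computed. Reads of *Il1a* per *Il1rn* read were 0.0849 ± 0.0128 (SD, n = 3) in control, 0.0866 ± 0.0155 with sh2, overlapping control, and 0.0537 ± 0.0118 with sh3, where all 3 tumors were below control. *Il1r1* per read of the decoy *Il1r2* (10.5 ± 4.73 in control, 5.72 ± 2.22 with sh2 and 7.22 ± 3.64 with sh3) and *Il18* per read of its binding protein *Il18bp* (0.51 ± 0.234, 1.25 ± 0.819 and 0.324 ± 0.227) overlapped with control for both hairpins.

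**Figure D3:**
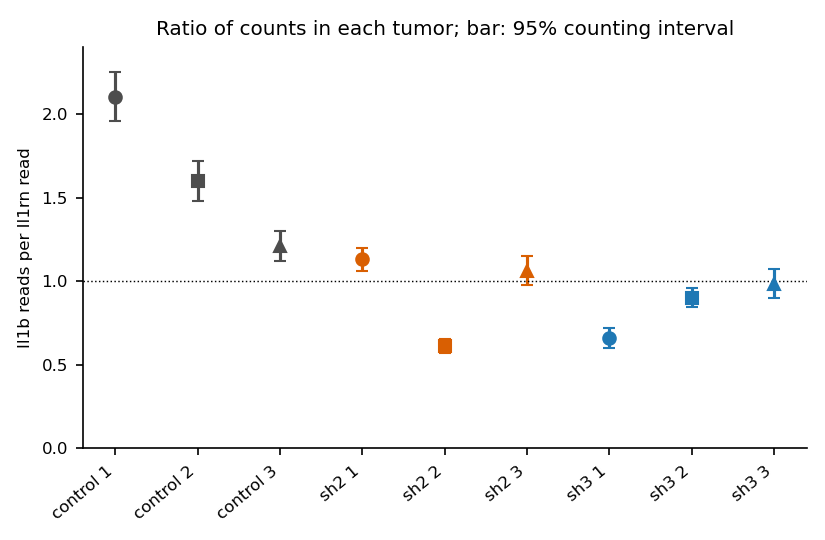
Number of *Il1b* reads per *Il1rn* read in each tumor (point) with its 95% exact counting interval (bar); the dotted line marks equal numbers. The control tumors sit at 2.10, 1.60 and 1.21 and the 6 sh2 and sh3 tumors between 0.610 and 1.13.

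*Il18*, whose product is also cut by caspase-1 and drives interferon gamma from lymphocytes, differed little between groups and a great deal in a single tumor. It was at 19.7, 17.4 and 15.2 CPM in control, at 14.5, 21.4 and 22.7 CPM with sh2 and at 2.54, 28.8 and 22.5 CPM with sh3. The first sh3 tumor, with 55 reads, was 11.3-fold below the second. For *Il18* the log2 fold change was 0.16 (SE 0.64, FDR = 0.999, edgeR) with sh2 and 0.04 (SE 0.64, FDR = 0.994, edgeR) with sh3. Without sh3 replicate 1 the value for sh3 was 0.56 (FDR = 0.311, edgeR). In that same tumor *Casp1*, which activates the cytokine, was at 15.6 CPM against 34.1 to 110 CPM elsewhere, and *Il18rap*, the accessory chain of its receptor, was at 117 CPM against 19.8 to 36.7 CPM elsewhere.

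*Il33* encodes a nuclear cytokine of epithelial and stromal cells and was the most variable member, with 14.1-fold between the lowest and the highest tumor, against a median of 2.75-fold over the 10 members and 1.93-fold over all genes tested. It was at 12.6, 11.1 and 17.8 CPM in control, at 7.71, 3.43 and 24.7 CPM with sh2 and at 17.6, 6.09 and 1.75 CPM with sh3. With sh2, tumors lay on either side of the controls, and with sh3, 1 lay within and 2 below the control range. The log2 fold changes of -0.21 (SE 0.82, FDR = 0.999, edgeR) with sh2 and -0.70 (SE 0.83, FDR = 0.891, edgeR) with sh3 have large errors beside their size. Leaving out sh3 replicate 1 moved the latter to -1.82 (FDR = 0.374, edgeR), and leaving out sh3 replicate 3 moved it to -0.23. Leaving out sh2 replicate 3 moved the former to -1.30, and leaving out sh2 replicate 2 to 0.23. The summed fibroblast markers were highest in control tumor 1 (5467 CPM), where *Il33* was at 12.6 CPM, and lowest in the third sh3 tumor (1324 CPM), where *Il33* was lowest. In the first sh3 tumor these markers were also low (1770 CPM), with *Il33* at 17.6 CPM. The part of fibroblasts in these values was not tested.

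*Il1rl1*, the receptor of interleukin-33, is counted here over its membrane-bound and its secreted decoy form together. It was at 4.89, 2.36 and 4.26 CPM in control, at 2.11, 2.03 and 1.71 CPM with sh2 and at 8.50, 2.08 and 1.41 CPM with sh3. All 3 sh2 tumors and sh3 replicates 2 and 3 were below all controls, and the first sh3 tumor was above every other tumor. Its log2 fold change was -0.98 (SE 0.63, FDR = 0.999, edgeR) with sh2 and 0.06 (SE 0.62, FDR = 0.991, edgeR) with sh3. Without sh3 replicate 1 the value for sh3 turned to -1.13 (FDR = 0.280, edgeR) and that of the mean of both hairpins was -1.05 (FDR = 0.599, edgeR). Reads per tumor were between 33 and 184. Mast cells are known to carry this receptor. Their 7 markers summed to 40.9, 14.9 and 18.3 CPM in control, 8.17 to 15.5 CPM with sh2 and 11.0 to 14.3 CPM with sh3. Over the tumors the mean log2 CPM of the tested mast cell markers went with *Il1rl1* (Pearson r = 0.57, Spearman rho = 0.78). That of skeletal muscle markers did so too (0.70 and 0.60), and that of simple epithelium went the opposite way (-0.48 and -0.73). The part of these cells in the values of *Il1rl1* was not tested.

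*Il1rap*, the accessory chain that receptors of interleukin-1 and interleukin-33 share, was the only member with an unadjusted P under 0.05, with sh3 and in the mean of both. It was at 26.5, 33.9 and 27.9 CPM in control, at 23.6, 28.2 and 17.6 CPM with sh2 and at 21.03, 19.65 and 19.97 CPM with sh3. The 3 sh3 tumors were all below the control tumors and close to each other (SD 0.719 CPM, against 3.95 CPM in control), whereas 1 sh2 tumor was inside the control range. Fitted log2 fold changes were -0.35 (SE 0.19, FDR = 0.999, edgeR) with sh2, -0.54 (SE 0.19, FDR = 0.753, edgeR) with sh3 and -0.45 (SE 0.16, FDR = 0.982, edgeR) in the mean of both. When any 1 of the 9 tumors was removed, the value in the mean lay between -0.53 and -0.33, that with sh3 between -0.63 and -0.44 and that with sh2 between -0.51 and -0.18. Without control replicate 2, the tumor in which *Il1rap* was highest, neither sh3 (-0.44) nor the mean (-0.33) had an unadjusted P under 0.05.

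*Il1r1*, the signalling receptor of interleukin-1, was the steadiest member, with 1.42-fold between the extremes. It was at 69.67, 70.05 and 74.63 CPM in control, at 71.4, 64.1 and 68.0 CPM with sh2 and at 67.8, 54.9 and 52.7 CPM with sh3. The sh3 tumors were all below the controls, the first by a small margin, and the sh2 tumors reached into the control range. Fitted log2 fold changes were -0.08 (SE 0.13, FDR = 0.999, edgeR) with sh2 and -0.29 (SE 0.13, FDR = 0.753, edgeR) with sh3. Without sh3 replicate 1 the value for sh3 was -0.41 (FDR = 0.249, edgeR). Beside it, summed fibroblast markers were 3131 to 5467 CPM in control, 2441 to 4057 CPM with sh2 and 1324 to 2331 CPM with sh3, all 8 of 8 markers being over 3 counts in every tumor. Over the 9 tumors the mean log2 CPM of fibroblast markers went with *Il1r1* (Pearson r = 0.75, Spearman rho = 0.73) and less so with *Il1rap* (0.32 and 0.23). That of the tested adipocyte markers also went with *Il1r1* (0.60 and 0.67). *Il1rap* went more with the tested mast cell markers (0.55 and 0.77), and the opposite way from those of B cells (-0.73 and -0.65). The part of any of these cells in the values of *Il1r1* and *Il1rap* was not tested.

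*Il6* was read 14, 16 and 9 times in control, 12, 7 and 14 times with sh2 and 7, 7 and 6 times with sh3, equal to 0.368 to 0.662, 0.338 to 0.584 and 0.257 to 0.356 CPM. The sh3 tumors were below the controls, with the gap to the third control tumor only a few reads wide, and the log2 fold change was -0.79 (SE 0.43, FDR = 0.760, edgeR) with sh3 and -0.18 (SE 0.42, FDR = 0.999, edgeR) with sh2. Values this close to the floor of 3 counts carry a large counting error. *Il6ra*, the receptor that gives cells sensitivity to interleukin-6, was at 26.0, 27.6 and 29.2 CPM in control, at 30.0, 16.1 and 24.1 CPM with sh2 and at 13.5, 29.0 and 26.9 CPM with sh3. The second sh2 tumor and the first sh3 tumor were far below the controls and the rest were near them. Fitted log2 fold changes were -0.24 (SE 0.30, FDR = 0.999, edgeR) with sh2 and -0.26 (SE 0.30, FDR = 0.891, edgeR) with sh3, and each rested on its low tumor: without sh2 replicate 2 the former was -0.02, and without sh3 replicate 1 the latter was 0.02.

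**Figure D4:**
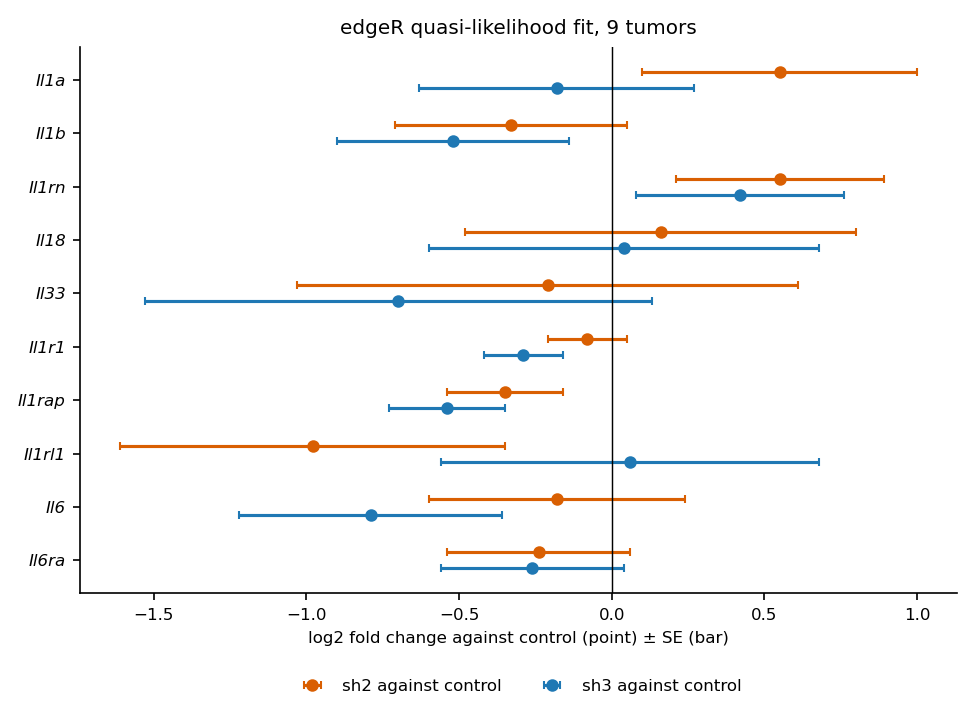
Log2 fold change of each member against control (point) with its standard error (bar) for sh2 and sh3, from the edgeR quasi-likelihood fit of all 9 tumors. The shortest bars belong to *Il1r1* (SE 0.13) and *Il1rap* (SE 0.19), both on the lower side with each hairpin, and the longest to *Il33* (SE 0.82 and 0.83).

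The wider pathway gave no gene past an FDR of 0.05 (edgeR) in any of the 4 comparisons. Among the other receptors and inhibitors of the family, the decoy receptor *Il1r2* was at 9.83, 8.32 and 4.71 CPM in control, 14.0, 16.6 and 8.30 CPM with sh2 and 14.2, 10.1 and 4.62 CPM with sh3 (mean of both against control 0.55 on the log2 scale, SE 0.39, FDR = 0.982, edgeR). *Il18bp*, which neutralises interleukin-18, ranged from 10.3 CPM in the second sh2 tumor to 91.0 CPM in the third sh3 tumor, and *Il18r1* from 3.19 to 15.3 CPM in the same pair of tumors. For sh3 against sh2 the log2 fold change was 0.96 (SE 0.42, FDR = 0.673, edgeR) for *Il18r1* and 1.30 (SE 0.57, FDR = 0.673, edgeR) for *Il18rap*, with overlapping groups for both. *Il18rap* was at 24.4, 22.7 and 19.8 CPM with sh2 and at 117, 21.9 and 25.6 CPM with sh3, so that apart from sh3 replicate 1 the levels were close together. The inhibitory receptor *Sigirr* was at 44.2 to 50.5 CPM in 8 tumors and at 79.3 CPM in sh3 replicate 1. Of the 6 tested genes of this list, 4 were higher and 2 lower in the mean of both hairpins, with a median of 0.18.

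The remaining ligands were looked up under 10 symbols, the older and newer names of 5 genes, and all 5 genes were in the table. Only *Il1f9*, which encodes interleukin-36 gamma, passed the filter. It was at 0.538 to 2.81 CPM in control, 0.959 to 5.84 CPM with sh2 and 0.642 to 1.42 CPM with sh3 (mean of both 0.48, SE 0.67, FDR = 0.982, edgeR). The 12 inflammasome and processing genes had a median log2 fold change of -0.02 in the mean of both hairpins, and the smallest P in this list belonged to *Casp8* (0.20, SE 0.17, FDR = 0.982, edgeR). The 21 genes from MyD88 to NF-kappaB had a median of 0.01, with *Tab1*, a partner of the kinase TAK1, having the smallest P (-0.25, SE 0.13, FDR = 0.982, edgeR). With sh3 alone *Tab1* was lower in 3 of 3 tumors than in any control (-0.47, SE 0.15, FDR = 0.753, edgeR). The medians of both lists were thus close to that of all genes tested, 0.02.

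Among 11 tested genes of the interleukin-6 family, 9 were lower in the mean of both hairpins (median -0.21). *Il6st*, the shared signalling chain, was at 105 to 176 CPM in control, 90.6 to 146 CPM with sh2 and 82.3 to 141 CPM with sh3 (-0.25, SE 0.23, FDR = 0.982, edgeR). The gene with the smallest P was *Clcf1*, a ligand of the ciliary neurotrophic factor receptor, at 11.0, 8.23 and 9.94 CPM in control against 4.70 to 8.60 CPM in the 6 sh2 and sh3 tumors (-0.61, SE 0.22, FDR = 0.982, edgeR). For the 8 JAK and STAT3 genes the median was -0.05, and *Jak2* had the smallest P (0.38, SE 0.28, FDR = 0.982, edgeR). In the other comparisons *Socs1* had the smallest P of this list, and it went opposite ways with the hairpins. It was -0.74 (SE 0.32, FDR = 0.999, edgeR) with sh2 and 0.96 (SE 0.32, FDR = 0.753, edgeR) with sh3, overlapping control in neither. For sh3 against sh2 it was 1.7 (SE 0.33, FDR = 0.673, edgeR), also without overlap. Of 18 genes known to be induced by interleukin-1 or interleukin-6, 7 were higher and 11 lower in the mean of both hairpins (median -0.13). At an unadjusted P under 0.05 there were 2 of them (4.09% of all genes tested). The neutrophil chemoattractant *Cxcl1* was at 70.9, 34.1 and 44.4 CPM in control, at 40.8, 12.8 and 19.4 CPM with sh2 and at 22.1, 25.0 and 28.1 CPM with sh3 (-1.01, SE 0.34, FDR = 0.982, edgeR). The second was *Cxcl2*, a related chemoattractant (-0.99, SE 0.36, FDR = 0.982, edgeR), which was at 52.3 CPM in control tumor 1 and at 10.1 to 19.8 CPM in the other 8. The related *Cxcl3* and *Cxcl5* went opposite ways with the hairpins, overlapping control in each case. With sh2 they were 0.99 (SE 0.54) and 1.24 (SE 0.84), and with sh3 -0.50 (SE 0.54) and -1.40 (SE 0.86). *Csf2* was 2.19 (SE 0.85, FDR = 0.999, edgeR) with sh2 and 0.05 (SE 0.84) with sh3. In sh3 against sh2, 5 of the 18 were lower and 0 higher at an unadjusted P under 0.05 (7.18% of all genes tested).

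**Figure D5:**
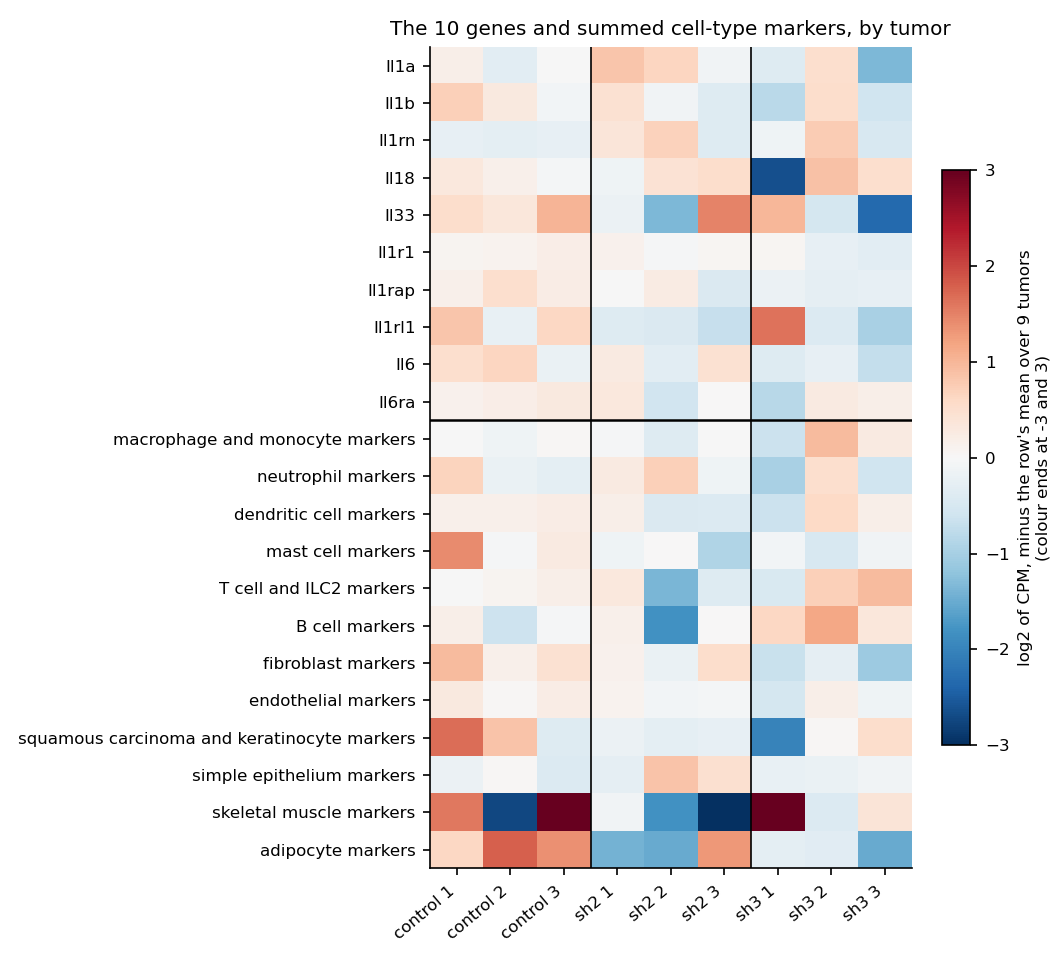
Log2 CPM of each member (above the line) and of the summed markers of 12 cell types (below the line) in each tumor, minus the row's mean over the 9 tumors; the colour scale ends at -3 and 3. The first sh3 tumor has the lowest *Il18* (-2.63) and the highest *Il1rl1* (1.63) together with low macrophage (-0.65), neutrophil (-0.97) and squamous (-2.01) markers, and the third sh3 tumor has the lowest *Il33* (-2.32), *Il1a* (-1.34) and fibroblast markers (-1.09).

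Which other genes followed each member over the 9 tumors was described by the correlation of log2 CPM, which has no P here because the genes were picked from 14725 and all points share library, depth and tumor piece. *Il33* varied most like *Cd209f* (Pearson r = 0.947, Spearman rho = 0.900), *Cd163* (0.944 and 0.95) and *Cd209e* (0.943 and 0.900). *Cd163* is a scavenger receptor of tissue macrophages, but the macrophage and monocyte markers as a list went the other way from *Il33* (-0.42 and -0.43), and those of fibroblasts (0.77 and 0.65) and adipocytes (0.79 and 0.78) went with it. *Il6ra* varied most like *Cd93* (0.989 and 0.95), *Aph1b* (0.986 and 0.867) and *Itga9* (0.977 and 0.883), and *Il18* like *Tmem139* (0.993 and 0.95), *Bco2* (0.987 and 0.95) and *Cd81* (0.981 and 0.900). *Il18* was lowest by far in the first sh3 tumor. Among the genes most like *Il1rn* were the chemokine gene *Ccl17* (0.975 and 0.833) and *Ffar2* (0.936 and 0.717). *Il1b* was most like *Mknk1* (0.946 and 0.983), *Cdc42ep2* (0.943 and 0.983) and *1500015O10Rik* (0.933 and 0.967), and *Il1a* like *Sh3tc2* (0.934 and 0.95), *Pced1a* (0.928 and 0.833) and *Emr4* (0.907 and 0.933).

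For the receptors, *Il1r1* was most like *Rbak* (0.966 and 0.967), *B3glct* (0.960 and 0.783) and *Abca8a* (0.949 and 0.883), and *Il1rap* like *Nsun4* (0.972 and 0.967), *Plxna2* (0.900 and 0.8) and *Nim1k* (0.899 and 0.8). *Il1rl1* was most like *Usp20* (0.95 and 0.917), *2700038G22Rik* (0.941 and 0.900) and *Coq2* (0.923 and 0.933). *Il6* was most like *Pxylp1* (0.964 and 0.967), *Olfml2a* (0.943 and 0.967) and the fibrillar collagen gene *Col5a3* (0.935 and 0.933). No member was among the 3 genes most like another member.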

How the data were processed

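The RNA of the 9 KLN205 tumors was poly-A selected and made into libraries with a TruSeq Stranded mRNA kit, run on an Illumina NextSeq. Per the submitters' processing notes, the authors used FastQC, STAR 2.5.3a, featureCounts and edgeR on mm10. Whether featureCounts used strand is not given in the sources used here. The authors deposited raw counts per gene, a normalized signal named CPM (count over library total times TMM factor, used only to check the values) and TPM, which was used only to compare levels between genes. A further 10 columns hold the authors' own comparisons and were not used.

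Counts were fitted with edgeR 4.0.16 (R 4.3.3): filterByExpr by group (14725 genes), TMM scaling, a robust quasi-likelihood fit of all 9 tumors by group, and Benjamini-Hochberg adjustment over all genes tested, with a threshold of FDR 0.05. CPM in the text is TMM-scaled. Log2 CPM for likeness used a prior count of 2. DESeq2 was version 1.42.0. Total counts were 20653219 to 24047784 per tumor, and the floor was taken as 3 counts. The fits were tested on simulated counts whose changes were larger than those fitted for any member. Whether changes of the members' size would be called was therefore not tested.

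The 10 members and all gene lists were chosen with earlier results of these data known. Named genes were *Tmprss11bnl*, all members, *Il1r2*, *Il18r1*, *Il18rap*, *Il18bp*, *Sigirr* and *Il6st*, list genes past the threshold (none), the gene with the smallest P of each list in the mean of both hairpins, and the 3 genes most like each member, of which 1 is not reported here. *Casp1*, *Csf2*, *Cxcl2*, *Cxcl3*, *Cxcl5*, *Krt5*, *Krt6a*, *Krt8*, *Krt14* and *Socs1* were added after their values were seen. Groups and replicates come from the labels, which call the tumors biological replicates. Alternatives were DESeq2 size factors, DESeq2, the likelihood ratio test, a non-robust fit, other filters on low counts, only the groups compared, sh2 and sh3 merged, a replicate block, and each tumor left out.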

Additional observations from a re-analysis of the deposited data

How the results depend on the processing

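No member passed the threshold under any alternative; the lowest adjusted p of a member was 0.188 (*Il1r1*, sh3 against sh2, edgeR, without sh3 replicate 1). Over all genes, where the edgeR quasi-likelihood test called 0, DESeq2 called 2 with sh2, 41 with sh3, 9 in the mean of both and 48 in sh3 against sh2, and the edgeR likelihood ratio test called 0, 8, 8 and 14; the cause was not tested. The labels number the tumors alike in each group without saying that numbers pair them: after removal of group means, same-numbered tumors correlated at -0.099 on average (9 pairs, -0.235 to 0.086), against 0.052 for differently numbered ones, and 0 of 9 tumors correlated best with its own number. With a replicate block 0 members and 0 genes were called, and the log2 fold change turned to -0.30 for *Il18* with sh3, to -0.13 for *Il18* in the mean of both and to -0.22 for *Il1rl1* with sh3.

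With each tumor left out in turn, 24 of 360 log2 fold changes of members changed sign, none of them past the threshold. With sh2 the ranges were -1.30 to 0.23 for *Il33* and -0.39 to 0.01 for *Il6*. With sh3 they were -0.74 to 0.14 for *Il1a*, -0.03 to 0.63 for *Il1rn*, -0.47 to 0.56 for *Il18*, -1.13 to 0.45 for *Il1rl1* and -0.45 to 0.02 for *Il6ra*. In the mean of both they were -0.10 to 0.35 for *Il1a* and -0.15 to 0.36 for *Il18*. In sh3 against sh2 they were -0.73 to 0.06 for *Il1b*, -0.58 to 0.09 for *Il1rn*, -0.64 to 0.39 for *Il18*, -1.61 to 0.58 for *Il33*, -0.16 to 1.42 for *Il1rl1* and -0.25 to 0.25 for *Il6ra*. Without sh3 replicate 1, 4 members rather than 1 had an unadjusted P under 0.05 with sh3 (*Il18*, *Il1r1*, *Il1rap*, *Il1rl1*), while over all genes tested their number rose from 976 to 2154. The 6 to 16 reads per tumor limit *Il6*, which dropped out at a minimum of 10 counts in every tumor.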

Other observations

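Among 8 tested genes of other inflammatory cytokines, 4 were higher and 4 lower in the mean of both hairpins (median -0.05), and the smallest P was that of *Tslp*, an epithelial alarm cytokine, at 1.49, 0.579 and 1.27 CPM in control and 0.417 to 0.813 CPM in the sh2 and sh3 tumors (-0.85, SE 0.38, FDR = 0.982, edgeR). *Tnf* was at 9.10 to 11.7 CPM in control, 6.46 to 17.7 CPM with sh2 and 3.28 to 15.5 CPM with sh3. *Il23a* reached 65.8 CPM in sh3 replicate 1, the tumor in which *Il1rl1* and *Il18rap* were also highest, and was at 12.2 to 42.4 CPM in the control and sh2 tumors; it and *Tnf* were picked after their values were seen.

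Markers of cells that can make or sense these cytokines moved unevenly, and none passed an FDR of 0.05 (edgeR). In the mean of both hairpins the medians of the tested markers were -0.07 for macrophages and monocytes, 0.11 for neutrophils, -0.19 for dendritic cells, -0.99 for mast cells, 0.12 for T cells and ILC2, 0.98 for B cells, -0.80 for fibroblasts, -0.26 for endothelium, 0.32 for simple epithelium, -2.21 for squamous and keratinocyte genes, -3.14 for skeletal muscle and -2.74 for adipocytes. The genes with the smallest P were *Ly6c2*, *Ngp*, *Cd209a*, *Mcpt4*, *Il7r*, *Cd79a*, *Col1a2*, *Tek*, *Muc1*, *Krt16*, *Atp2a1* and *Plin1* in the same order of lists. Control tumors differed widely in some lists. Skeletal muscle markers summed to 357.5, 18.12 and 3185 CPM in control, 4.67 to 111.3 CPM with sh2 and 90.76 to 1006 CPM with sh3. Squamous markers summed to 862.8, 487.9 and 206.1 CPM in control, 219.1 to 238.3 CPM with sh2 and 66.92 to 390.5 CPM with sh3. The groups thus overlapped in both lists. *Mcpt4*, a mast cell protease, was at 5.96, 3.02 and 3.85 CPM in control and 0.684 to 2.63 CPM in the sh2 and sh3 tumors.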
